A study of Mus musculus with 4 samples.

Results

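The high mobility group (HMG) genes described here are the 9 genes Hmga1, Hmga2, Hmgb1, Hmgb2, Hmgb3, Hmgn1, Hmgn2, Hmgn3 and Hmgn5. They were chosen by name from the 54842 genes and 1562 repeat families of the counts table, and each was found there once by its Ensembl identifier. RNA came from untreated mouse embryonic fibroblasts (MEF cells), either wild-type (wt) or null for Top2β (topoisomerase 2 beta, encoded by Top2b), with 2 libraries per genotype, and libraries of total RNA were made after depletion of ribosomal RNA. The series asks whether DNA topology has a part in the transcription of major satellite repeats, the A/T-rich arrays of mouse heterochromatin. The Top2β-null MEF cells were a gift and derive from null mice. Whether the sequenced wt MEF cells share that origin, and how many embryos or clones stand behind either genotype, is not given in the sources used here, so a difference in origin and one in genotype cannot be told apart. Nothing in the labels says that the 2 libraries of a genotype came from separate cultures, so the p-values measure only the spread between these libraries.

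HMG proteins are abundant non-histone proteins that change the shape of DNA or of nucleosomes. HMGA proteins use AT-hooks to hold the minor groove of A/T-rich DNA, HMGB proteins bend DNA with HMG boxes, and HMGN proteins bind the nucleosome core and loosen chromatin that linker histone H1 compacts. HMGA genes are high in embryonic and tumour cells and low in most adult tissues, HMGB1 also acts outside the cell as an alarm signal, and HMGB2 is known from proliferating cells.

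The targeted gene was measured first. Both wt libraries held more Top2b RNA (18259 and 18465 normalized counts) than the Top2β-null libraries (3879 and 3789), whose mean was 20.9% of that in wt. A normalized count is the deposited count brought to a common library size (the geometric mean over libraries) with edgeR's TMM factors. The libraries held between 133116830 and 149647278 counts in all. Of the counts on genes alone, without repeat families, the 9 HMG genes took between 0.214% and 0.222%. The HMG gene with the fewest reads, Hmgn5, had between 412 and 1051 counts per library. Of the fibroblast markers, 11 of 12 passed the filter on low counts, and their summed level was between 1345750 and 1369427 normalized counts in wt and between 932604 and 937589 in Top2β-null libraries. By the cut-offs 4 of the 11 were higher (Dcn, Thy1, Pdgfrb and Pdgfra) and 2 lower (Col1a1 and Col3a1), and by the adjusted p 5 were higher and 5 lower. Over all features tested, 5.27% were higher and 4.97% lower by the cut-offs, and 32.5% in each direction by the adjusted p. Dcn (decorin) had 226.1 and 223.1 normalized counts in wt against 7053 and 7239 in Top2β-null libraries, while Col1a1 (collagen I) was lower with Top2β absent (log2 fold change -1.38). Lum, another fibroblast gene, was near 0 throughout (0.966 to 3.96 normalized counts). Markers of other cells were sparse, apart from the leukocyte markers Cd68 and Csf1r. Of 9 leukocyte markers, 4 passed the filter, their sum was 2429 and 2508 in wt and 1356 and 1358 in Top2β-null libraries, Tyrobp was at 0 in every library and Ptprc was at most 6.76. Most of that sum came from Cd68 (1641 and 1688 in wt, 302.4 and 289.2 in Top2β-null libraries) and Csf1r (739.8 and 766.9 in wt, 962.1 and 977.5 in Top2β-null libraries). By the adjusted p, Cd68 was lower and the other 3 were higher, namely Csf1r, Itgam (1.009 and 0.9659 in wt, 27.96 and 28.72 in Top2β-null libraries) and Fcer1g (30.28 and 33.81 in wt, 53.86 and 53.48 in Top2β-null libraries). Of 7 epithelial markers, 3 passed (Cdh1, Cldn4 and Krt8, each lower in Top2β-null libraries), the sum was 83.8 and 92.7 in wt and 23.8 and 26.7 in Top2β-null libraries, and Epcam was at most 3.11. Of 6 endothelial markers, 4 passed, the sum was 167 and 164 in wt and 253 and 259 in Top2β-null libraries, and Tie1 was at most 2.02. Kdr rose (71.66 and 68.58 to 203 and 205 normalized counts) and Tek fell (43.4 and 34.77 to 9.321 and 3.962). The part of these fibroblast and other marker differences in the HMG results was not tested. In bulk RNA, fewer cells of a type and less RNA per cell cannot be told apart.

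By the quasi-likelihood test of edgeR, 3 of the 9 HMG genes passed the cut-offs of the study's methods, namely more than 100 normalized counts on average, a log2 fold change beyond 1 in either direction and an adjusted p under 0.05. Hmgb2 was higher in Top2β-null MEF cells, while Hmga1 and Hmgn5 were lower. When counts were scaled to Hprt, Hmga1 (-0.97) and Hmgn5 (-0.77) kept their direction but fell short of the fold change cut-off, and Hmgn3 (1.03) passed it. Over all 26566 genes and repeat families tested, 10.2% passed these cut-offs, 5.27% as higher and 4.97% as lower. By the adjusted p alone, 6 of the 9 genes were higher (Hmgb1, Hmgb2, Hmgb3, Hmgn1, Hmgn2 and Hmgn3) and 3 were lower (Hmga1, Hmga2 and Hmgn5). Over all features tested, 32.5% were higher and 32.5% were lower by this rule. In normalized counts, the wt and Top2β-null libraries did not overlap in any of the 9 genes, and the same holds for 80.5% of all features tested. Per length and scaled as for TPM, Hmga2 did overlap (252 and 244 in wt, 245 and 249 in Top2β-null libraries). Among the 11691 features with a higher mean count than Hmgn5, 80.8% passed the adjusted p and 11.4% passed the cut-offs. The median log2 fold change of the 9 genes was 0.37, against 0.0027 over all features. Their median absolute log2 fold change was 0.56, against 0.39 over all features and 0.29 over the features more abundant than Hmgn5.

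**Figure D1:**
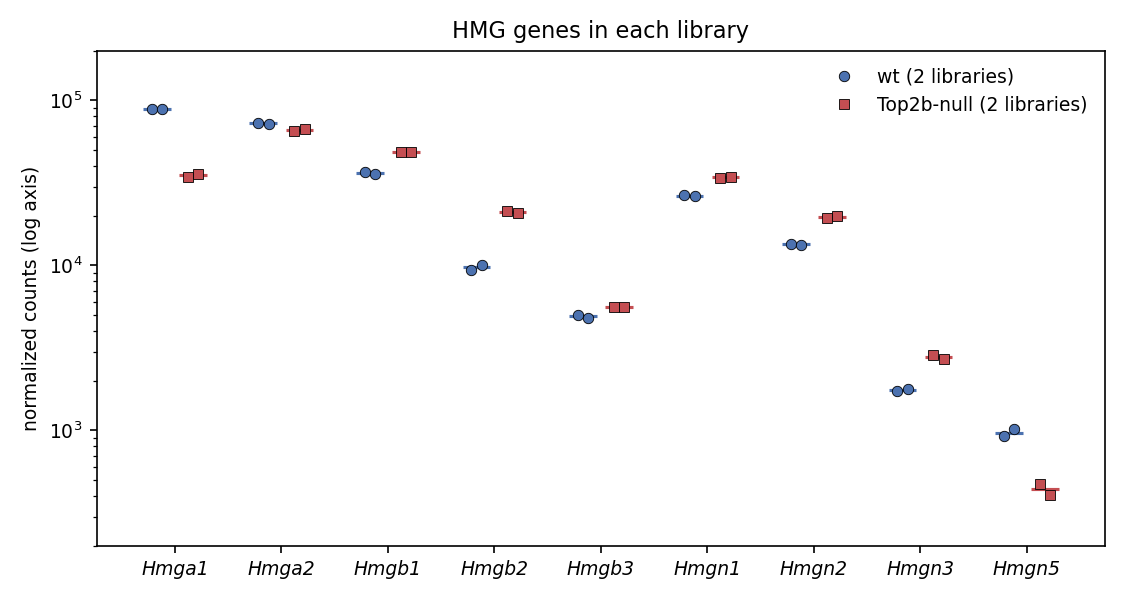
Normalized counts (log axis) of the 9 HMG genes in the 2 wt libraries (circles) and the 2 Top2β-null libraries (squares), with a line at each group mean. Hmga1 has a mean of 89091 in wt and of 35127 in Top2β-null libraries, and Hmgb2 lies higher in the Top2β-null libraries. For no gene do the groups overlap, which also holds for 80.5% of all features tested.

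Hmga1 encodes the HMGA protein that stays expressed in many dividing cells. Its locus is on the forward strand of chromosome 17 between 27556497 and 27563674 (GRCm38, or mm10, as for all positions here). Counts were 89157 and 89024 in wt and 34387 and 35866 in Top2β-null libraries after normalization. Both Top2β-null libraries lay far below both wt libraries. On the log2 scale the change was -1.34 with a standard error of 0.0284 (adjusted p = 6.2e-16 by edgeR over all features), and the Top2β-null mean was 39.4% of the wt mean.

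Hmga2, the embryonic HMGA gene, lies on chromosome 10 from 120361275 to 120476469, on the reverse strand. It had 73140 and 72048 normalized counts in wt and 65316 and 67475 in Top2β-null libraries. The Top2β-null libraries lay just below the wt libraries (log2 fold change -0.13, standard error 0.0276, adjusted p = 0.00066 by the same edgeR test). Its direction rests on the scaling, since scaling to Hprt, itself lower in Top2β-null MEF cells, turned it to 0.24, and scaling to the total count left -0.059 (adjusted p = 0.091 by edgeR). The ratio of Hmga1 to Hmga2 needs no scaling between libraries. Per length of merged exons it was 3.88 and 3.94 in wt and 1.68 and 1.69 in Top2β-null libraries, 2.32-fold lower in the latter (two-sided exact permutation p = 0.33, which is as small as this test can give with 2 libraries per genotype).

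The HMGA pair also differs in its 3′ untranslated region, in sites for the let-7 family of miRNAs, which hold HMGA2 low in differentiated cells. The first sequence below is let-7a-5p (RefSeq, GRCm38.p6) with its seed, bases 2 to 8, in capitals. That seed is shared by 9 of the 10 let-7 family members in the table. The others are 30-base windows of the RNA strand, from GENCODE M21 transcripts on GRCm38, with the 7 bases that pair with the seed in capitals. They are shown because Hmga2 carries 4 such sites and Hmga1 carries 1.
let-7a-5p: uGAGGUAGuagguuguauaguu
Hmga2 site 1, chr10:120364221-120364250, reverse strand: gggcgccgacattcaatttCTACCTCagca
Hmga2 site 2, chr10:120362984-120363013, reverse strand: taatccccactcctcaataCTACCTCtgaa
Hmga2 site 3, chr10:120362546-120362575, reverse strand: cttcctgatttgcaaggaaCTACCTCcaca
Hmga2 site 4, chr10:120361688-120361717, reverse strand: gtacaatcaaaacacactaCTACCTCttaa
Hmga1 site 1, chr17:27563273-27563302, forward strand: cttctcctctgttcacaaaCTACCTCtgga

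The motif CTACCTC, searched on the RNA strand only, was found at least once in the longest 3′ untranslated region of 9.03% of 21015 protein-coding genes and at least 4 times in 0.0571%. Among the 2247 genes whose 3′ untranslated region is 0.8 to 1.2 times as long as that of Hmga2, 15.5% had a match and 0.134% had 4 or more. None of the 7 HMGB and HMGN genes had a match. These matches are a description of the sequence, and levels of mature let-7 are not analysed here.

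Hmga1 has a near-identical intronless copy, Hmga1b, on chromosome 11 from 120762794 to 120764419, whose counts moved the other way. Hmga1b had 691.4 and 740.8 normalized counts in wt and 5915 and 6064 in Top2β-null libraries (log2 fold change 3.06, standard error 0.0452, adjusted p = 7e-18 by edgeR). It held 0.769% and 0.825% of the counts of the pair in wt and 14.7% and 14.5% in Top2β-null libraries. The Hmga1b transcript has 1 exon and ends in 24 A bases, whereas the aligned Hmga1 transcript has 5 exons. Over 1602 aligned bases the transcripts were 99.81% identical, with the 324 coding bases the same in both. The 3 differences, A657G, A784G and G1246T (Hmga1 base first, positions counted from 1 at the 5′ end of the Hmga1b transcript), all lie after the stop codon, and the let-7 site is unchanged. Within the aligned stretch, reads of spliced Hmga1 RNA that cover none of these 3 bases fit both genes, also across exon junctions, and how they were divided depends on the authors' counting, so the split between the genes is uncertain. With the Hmga1b counts added to Hmga1, an alternative chosen after seeing the data, the log2 fold change was -1.13 (adjusted p = 4.8e-15 by edgeR).

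**Figure D2:**
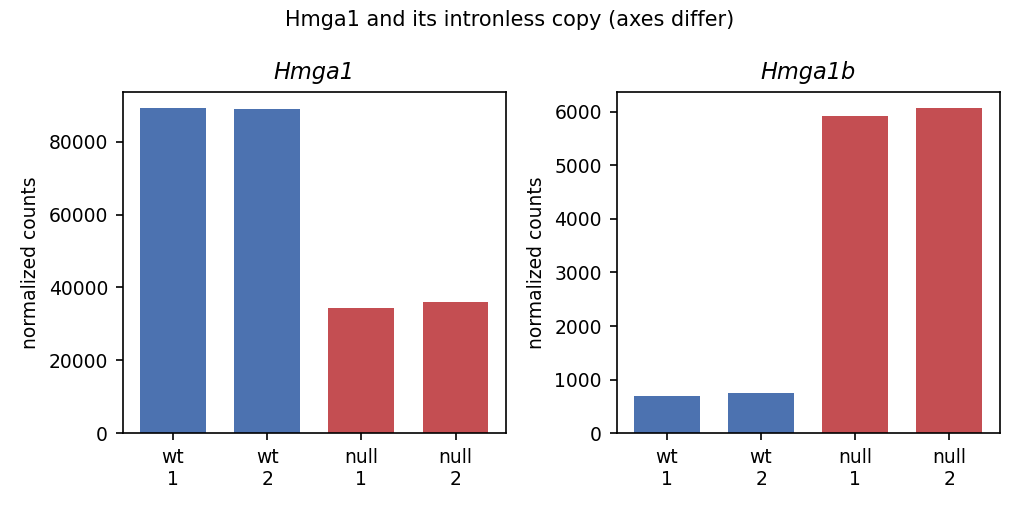
Normalized counts of Hmga1 (left) and its intronless copy Hmga1b (right) in each library, as bars from 0 with different vertical axes. Hmga1 was lower in both Top2β-null libraries while Hmga1b rose from 691.4 and 740.8 to 5915 and 6064.

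Genes that overlap the HMGA genes on the opposite strand were measured beside them. AI413582 shares 102 bases with Hmga1 and was also lower in Top2β-null MEF cells (log2 fold change -0.89, adjusted p = 1.9e-11 by edgeR), with at most 4.97% of the Hmga1 counts in any library. Gm49774 shares 22 bases with Hmga1 and had 565 and 562 normalized counts in wt and 241 and 256 in Top2β-null libraries. The antisense gene 1700006J14Rik, which shares 20180 bases of the Hmga2 locus, did not pass the test (log2 fold change 0.035, adjusted p = 0.451 by edgeR). Nor did 9230105E05Rik, which shares 3271 bases of that locus (log2 fold change 0.17, adjusted p = 0.0655 by edgeR). The library kit marks strand, but the strand setting of the counting is not given in the sources used here.

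Among the HMGB genes, the one with the largest difference was Hmgb2, on the forward strand of chromosome 8 between 57511907 and 57515999. Its normalized counts were 9422 and 10044 in wt and 21301 and 20758 in Top2β-null libraries. Both Top2β-null libraries held more than 2 times the counts of either wt library. The mean was 2.16-fold above wt (log2 fold change 1.11, standard error 0.0303, adjusted p = 1.4e-14 by edgeR).

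Hmgb1, the most abundant HMGB gene per length and the source of the extracellular alarm signal, lies on chromosome 5 from 149046702 to 149184489, on the reverse strand. It had 36975 and 36047 normalized counts in wt and 48351 and 48775 in Top2β-null libraries. The difference was 1.33-fold, larger than the spread within either group (log2 fold change 0.41, standard error 0.026, adjusted p = 6.8e-10 by edgeR). Uspl1, on the opposite strand, shares 140 bases with Hmgb1 and was higher in Top2β-null MEF cells as well (log2 fold change 0.52, adjusted p = 2.1e-11 by edgeR), at up to 25.5% of the Hmgb1 counts. Hmgb3, known from blood stem cells and lying on the X chromosome from 71555918 to 71560676, had 5011 and 4817 normalized counts in wt and 5597 and 5627 in Top2β-null libraries. The Top2β-null values lay above the wt values by 1.14-fold on average (log2 fold change 0.19, standard error 0.0305, adjusted p = 4.1e-05 by edgeR).

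The promoter of Hmgb2 holds CCAAT, the motif bound by the factor NF-Y and known from promoters of cell cycle genes, 4 times. The 4 windows of 30 bases are shown because no other HMG promoter in the table held as many. They come from RefSeq (GRCm38.p6, forward strand), with the motif in capitals, which begins 243, 198, 73 and 11 bases before the RefSeq start site. That start lies upstream of the GENCODE start of the locus (57511907), since the RefSeq promoter window already ends at 57511892.
Hmgb2 window 1, chr8:57511593-57511622: ctcatggCCAATcagcagcgggcccgccat
Hmgb2 window 2, chr8:57511633-57511662: cttttcctgccgCCAATcagggccgagcag
Hmgb2 window 3, chr8:57511758-57511787: gccagacacccaCCAATcggaagccttctc
Hmgb2 window 4, chr8:57511813-57511842: tttgaataatcctccacagCCAATcagagc

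Promoters were taken as 250 bases before to 50 bases after the start, and CCAAT was searched on both strands. Of the 9 HMG genes, 8 had a promoter in the table, and Hmgn3 did not. Matches numbered 3 at one start of Hmgb1 and 0 at its other start, 3 in Hmgb3, 2 in Hmgn1, 1 in Hmgn2, 2 in Hmgn5, and 0 in Hmga2 and at both starts of Hmga1. Among all 32851 promoters, 37.4% held at least 1 match and 3.21% held 3 or more. The motif was absent from this window in both HMGA genes, of which Hmga1 was lower in Top2β-null MEF cells and Hmga2 had a direction that rests on the scaling. It was present in Hmgn5, which was lower, and in the 5 higher genes with an entry. A match describes the letters and is no evidence of binding.

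Hmgn1 and Hmgn2 encode the small HMGN proteins found in most cells. Hmgn1, on chromosome 16 from 96120618 to 96127729, had 26668 and 26297 normalized counts in wt and 34095 and 34367 in Top2β-null libraries. Its libraries lay 1.29-fold apart between genotypes (log2 fold change 0.37, standard error 0.0248, adjusted p = 1.4e-09 by edgeR). Hmgn2, on chromosome 4 from 133964738 to 133968650, had 13499 and 13347 normalized counts in wt and 19471 and 20061 in Top2β-null libraries. It was 1.47-fold higher in the latter (log2 fold change 0.56, standard error 0.0255, adjusted p = 1e-11 by edgeR).

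Hmgn3 lies on chromosome 9 from 83109948 to 83146685 and had 1743 and 1786 normalized counts in wt and 2867 and 2708 in Top2β-null libraries. It showed the largest rise among the HMGN genes, 1.58-fold (log2 fold change 0.66, standard error 0.0455, adjusted p = 2.2e-09 by edgeR). Gm2065 and Gm29054, annotated on the opposite strand of Hmgn3, rose too (log2 fold changes 0.77 and 0.90), at up to 23.2% and 13.7% of the Hmgn3 counts.

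Hmgn5, which encodes the HMGN protein with the long acidic tail (406 codons, against 96 in Hmgn1), lies on the X chromosome from 109004534 to 109013404. It had 920.5 and 1015 normalized counts in wt and 470.2 and 408.1 in Top2β-null libraries. It was the only HMGN gene that fell, to 45.4% of the wt mean (log2 fold change -1.14, standard error 0.0779, adjusted p = 1.8e-09 by edgeR). The other X-linked HMG gene, Hmgb3, was higher. The median log2 fold change of the 785 X-linked genes tested was -0.15, and Xist, the RNA that coats an inactive X chromosome, had between 6.214 and 24.76 normalized counts in the 4 libraries.

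**Figure D3:**
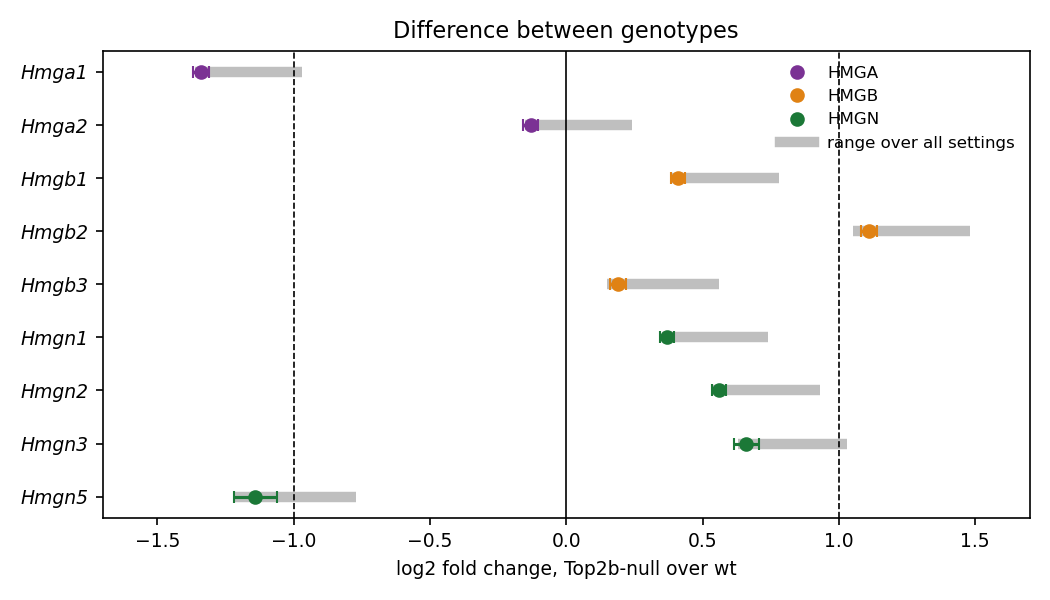
Log2 fold change (Top2β-null over wt) of each HMG gene with its standard error, coloured by subfamily, and dashed lines at the cut-offs of -1 and 1. Grey bars span the values over every alternative setting, and only Hmga2, from -0.15 to 0.24, spans 0.

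Setting genes beside each other needs a level per length, here counts per kilobase of merged exons, scaled to the same sum over genes in each library as for TPM. In wt MEF cells the order was Hmga1 (969 ± 13.5, SD, n = 2), Hmga2 (248 ± 5.83), Hmgn1 (190 ± 4.34), Hmgb1 (168 ± 5.19), Hmgn2 (101 ± 2.12), Hmgb2 (74.9 ± 2.42), Hmgb3 (50.8 ± 2.08), Hmgn3 (21.8 ± 0.093) and Hmgn5 (11.6 ± 0.65). Hmga1 stood 3.91-fold above the next gene (2.33-fold with the longest transcript as length) and ranked 113 among 54495 genes. In Top2β-null MEF cells Hmga1 still led (417 ± 8.33, SD, n = 2), followed by Hmgn1 (268 ± 1.12), Hmga2 (247 ± 3.27), Hmgb1 (244 ± 0.876), Hmgb2 (177 ± 4.94), Hmgn2 (163 ± 1.85), Hmgb3 (63.3 ± 0.381), Hmgn3 (37.6 ± 1.88) and Hmgn5 (5.73 ± 0.629). Hmga2 and Hmgb1 lay within 1.01-fold of each other there, a gap about as large as the SD of Hmga2, and are not separated beyond their spread. For every other pair of neighbours, in both groups, the means differed by more than either SD. The order depends in part on the length used. With the longest transcript, Hmga2 came to 365 in Top2β-null MEF cells, within 1.01-fold of Hmga1 (368), which leads by 1.56-fold over Hmgn1 with merged exons. Hmgb1 then stood above Hmgn1 in both genotypes, and in Top2β-null MEF cells Hmga2 also stood above Hmgn1, and Hmgn2 above Hmgb2. Hmgb3, Hmgn3 and Hmgn5 kept the last places with either length.

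Within the 9 genes, the composition shifted from HMGA to HMGB and HMGN. The fall within HMGA lay in Hmga1 (mean 969 in wt and 417 in Top2β-null libraries), while Hmga2 stayed level (248 and 247). HMGA genes made up 66.3% of the summed per-length level in each wt library and 40.5% and 41.4% in the Top2β-null libraries. HMGB genes rose from 16.0% in each wt library to 30.1% and 29.5%, and HMGN genes from 17.7% to 29.4% and 29.1%. With Hmga1b counted in, the HMGA share was 66.5% in each wt library and 43.7% and 44.6% in the Top2β-null libraries. These shares need no scaling between libraries, and they are tied to each other because they add up to the whole. The per-length levels of the 9 genes summed to 1835 ± 29.9 for wt and 1621 ± 3.62 for Top2β-null MEF cells (SD, n = 2). Within HMGA, the share of Hmga1 was 79.5% and 79.7% in wt against 62.7% and 62.9% in Top2β-null libraries. Within HMGB, the share of Hmgb2 was 24.6% and 26.4% against 36.9% and 36.1%. Within HMGN, the share of Hmgn5 was 3.38% and 3.75% against 1.3% and 1.12%. The ratio of Hmga1 to Hmgb2 was 13.4 and 12.5 in wt and 2.28 and 2.44 in Top2β-null libraries, which is 5.48-fold lower on average.

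**Figure D4:**
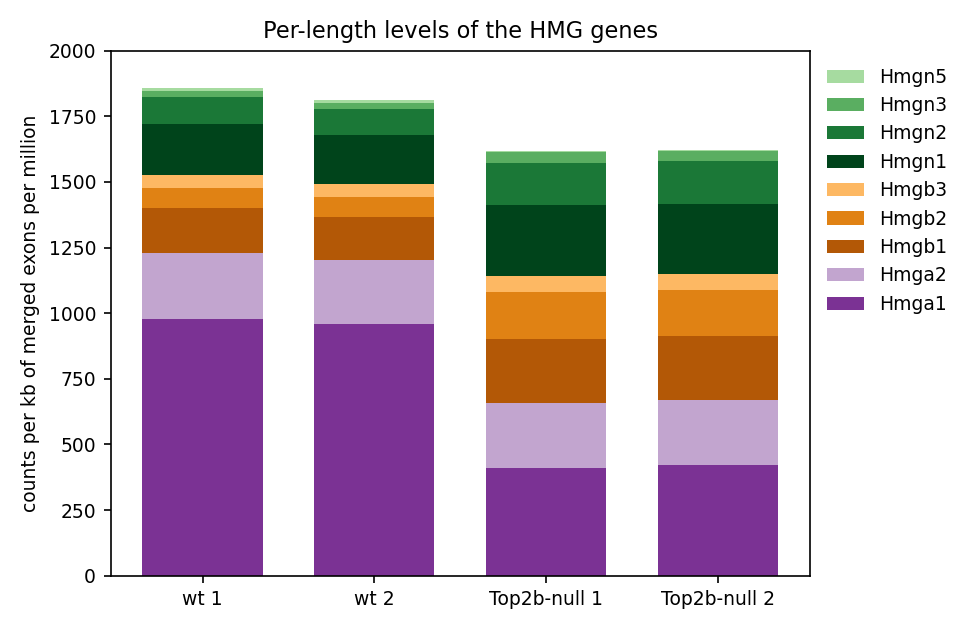
Stacked per-length levels (counts per kilobase of merged exons, scaled as for TPM) of the 9 HMG genes in each library, from Hmga1 at the bottom to Hmgn5 at the top. The HMGA part (purple) takes 66.3% of each wt bar and 40.5% and 41.4% of the Top2β-null bars.

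HMG genes have many processed pseudogenes, and annotated genes with at least 95% identity over at least 200 bases were counted for each member. There were 45 for Hmgb1, 12 for Hmgn2, 5 for Hmgb2, 4 for Hmgn1, 1 each for Hmga1, Hmgb3 and Hmgn5, and none for Hmga2 and Hmgn3. The 43 copies of Hmgb1 in the table held between 8.43% and 9.99% of the counts of Hmgb1 and its copies. The 11 copies of Hmgn2 held between 19.8% and 21%, most of it in Gm10282, which rose like Hmgn2 (2911 and 2698 normalized counts in wt, 4124 and 4358 in Top2β-null libraries). Hmgb1-ps2 had 499 and 496 normalized counts in wt and 641 and 606 in Top2β-null libraries, and Hmgn2-ps1 had 139 and 109 against 155 and 174. Other Hmgb1 copies with over 100 normalized counts on average differed more or less than Hmgb1, with log2 fold changes from -0.04 (Gm46432) to 1.55 (Gm21596), and Gm21596, Gm15387 (1.2) and Gm5527 (1.17) passed the cut-offs as higher. Reads of these copies and of their parent genes can be split by the counting, so these values are uncertain. Adding the counts of all copies to their parents, an alternative chosen after seeing the data, left the log2 fold changes at 0.43 for Hmgb1 and 0.56 for Hmgn2.

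Related genes were described by lists, whose counts stand beside 5.27% higher and 4.97% lower by the cut-offs, and 32.5% in each direction by the adjusted p, over all features. Among features more abundant than Hmgn5, 80.8% passed the adjusted p, so a list in which most genes pass it is near the background. Other HMG-box genes numbered 16, of which 13 were tested. None passed the cut-offs, while 7 were higher and 3 lower by the adjusted p alone, with a median log2 fold change of 0.12 (0.0027 over all features). Bbx, an HMG-box factor, rose from 6579 and 6720 to 12711 and 12738 normalized counts (log2 fold change 0.94, adjusted p = 1.5e-14 by edgeR). Tfam, which packages mitochondrial DNA, fell from 5656 and 5702 to 4049 and 4030 (log2 fold change -0.49, adjusted p = 4.3e-10 by edgeR), and Ssrp1, the HMG-box subunit of the histone chaperone FACT, had a log2 fold change of -0.24 (adjusted p = 4.8e-07 by edgeR). Tox had 0 and 1 raw counts in wt and 32 and 44 in Top2β-null libraries, a ratio of 78.0 with a 95% exact binomial interval from 13.6 to 3119 that covers counting error only. Hmgb4 and Tox3 were at 0 in all libraries.

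Linker histones share the nucleosome with HMGN proteins. Of 10 genes, 9 were tested, 2 passed the cut-offs as higher and none as lower, and by the adjusted p alone 5 were higher and 2 lower (median log2 fold change 0.53), against 5.27% and 4.97% by the cut-offs and 32.5% in each direction by the adjusted p over all features. Hist1h1a had 4399 and 4434 normalized counts in wt and 24893 and 24441 in Top2β-null libraries (log2 fold change 2.48, standard error 0.0267, adjusted p = 2e-19 by edgeR). H1fx rose from 2491 and 2469 to 4997 and 5146 normalized counts (log2 fold change 1.03), and the testis gene H1fnt, at 4.037 and 3.864 against 13.46 and 11.89, had a log2 fold change of 1.65 (adjusted p = 0.0135 by edgeR). Hist1h1c and Hist1h1d were slightly lower (log2 fold changes -0.20 and -0.091). Libraries of total RNA also hold histone transcripts that lack a poly(A) tail.

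The LIN28, let-7 and IGF2BP axis acts on HMGA2. LIN28 proteins block the maturation of let-7, and IGF2BP proteins bind target mRNAs, Hmga2 among them. Of 11 genes, 10 were tested, and 6 were higher and 4 lower by the adjusted p (32.5% in each direction over all features, median log2 fold change 0.14), and by the cut-offs 1 was higher and 2 lower. Igf2bp3 fell from 7406 and 7507 to 1127 and 1226 normalized counts (log2 fold change -2.66, standard error 0.0404, adjusted p = 9.9e-18 by edgeR). Igf2bp2 rose from 7821 and 7754 to 23140 and 23000 (log2 fold change 1.57, standard error 0.0249, adjusted p = 1.8e-17 by edgeR). Lin28b had 1 and 4 raw counts in wt and 82 and 69 in Top2β-null libraries, a ratio of 31.0 (95% exact binomial interval 13 to 96.8, counting error only), and stayed under the mean count cut-off. Trim71, a stem cell ubiquitin ligase and let-7 target, fell from 182.7 and 127.5 to 59.03 and 46.55 (log2 fold change -1.55, adjusted p = 1e-05 by edgeR). Igf2bp1, Lin28b and Trim71 each have 4 CTACCTC matches in their 3′ untranslated regions, like Hmga2, and their log2 fold changes were 0.087, 4.89 and -1.55, against -0.13 for Hmga2.

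Extracellular HMGB1 is bound by receptors and partners, of which 9 of 10 were tested. By the adjusted p 5 were higher and 4 lower (32.5% in each direction over all features, median log2 fold change 0.59). By the cut-offs 3 were higher and 1 lower. Tlr2 rose from 38.35 and 42.5 to 683.5 and 666.6 normalized counts (log2 fold change 4.06, standard error 0.118, adjusted p = 3.4e-14 by edgeR), and Cd24a, whose protein binds HMGB1 and dampens its signal, rose from 6564 and 6436 to 31502 and 33173 (log2 fold change 2.31). Tlr4 fell from 4039 and 3979 to 1219 and 1152 (log2 fold change -1.76, standard error 0.0444, adjusted p = 5.6e-15 by edgeR). Tlr9 had 48.45 and 44.43 normalized counts in wt and 5.178 and 6.933 in Top2β-null libraries (log2 fold change -2.91, adjusted p = 7e-06 by edgeR). Ager, the gene of the receptor RAGE, had 187.7 and 207.7 against 165.7 and 145.6 (log2 fold change -0.35, adjusted p = 0.0327 by edgeR), and Cxcr4 was at most 5.94 in any library.

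Proliferation genes were counted because Hmgb2 and Hmga1 are known from dividing cells. None of the 16 passed the cut-offs, 10 were higher and 4 lower by the adjusted p alone (32.5% in each direction over all features), and the median log2 fold change was 0.10. Aurkb, a mitotic kinase, had the largest rise (5476 and 5574 to 9663 and 9684 normalized counts, log2 fold change 0.81), and Ccnb2, a mitotic cyclin, came next at 0.39. Pcna, the replication clamp, had 29282 and 28692 normalized counts in wt and 22844 and 23226 in Top2β-null libraries (log2 fold change -0.33), and Bub1 had a log2 fold change of -0.26. The log2 fold changes of Hmga1 (-1.34) and Hmgb2 (1.11) both lay outside the range of these 16 genes. Whether proliferation has a part in the differences of Hmga1 and Hmgb2 was not tested.

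**Figure D5:**
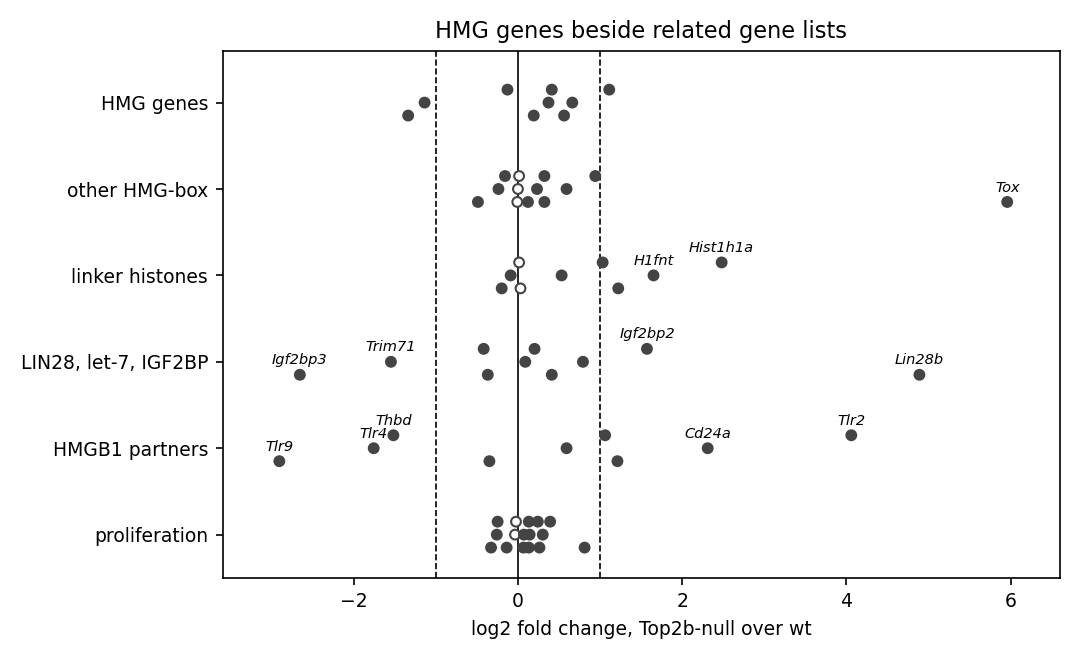
Log2 fold changes (Top2β-null over wt) of the HMG genes and the tested genes of 5 related lists, with filled points for an adjusted p below 0.05, open points for others and dashed lines at -1 and 1. Proliferation genes lie between -0.33 and 0.81, inside the range of the HMG genes from -1.34 to 1.11, and the fitted value of Tox rests on 1 wt count.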

How the data were processed

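RNA-seq of rRNA-depleted total RNA from 2 wt and 2 Top2β-null libraries was analysed. The authors trimmed reads with Trim Galore! (v0.4.0), aligned them to mm10 with STAR (v2.5.2), allowing multi-mapping reads, and used TEtranscripts (v1.5.1), which can share such reads between features, for counting. What the authors deposited are raw counts, whole numbers for each gene and repeat family. The mode and strand setting of the counting are not given in the sources used here, and they bear on genes with near-identical copies or overlapping neighbours. Genotype and replicate come from the labels, and 0 columns were left out. Of 54842 gene identifiers, 54495 matched GENCODE M21 without their version, which gave symbols, positions and lengths.

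The 26566 features that reached 10 counts in 2 or more libraries were fitted together in R 4.3.3 with edgeR 4.0.16 (TMM over genes and repeats, quasi-likelihood test, genotype only), with Benjamini-Hochberg adjustment over all of them. Standard errors were taken as the size of the log2 fold change over the square root of F. The 2 libraries of a genotype differed beyond sampling noise (chi-square over its degrees of freedom 3.65 for wt and 5.07 for Top2β-null). The tests were tested on simulated data. Alternatives were DESeq2 1.42.0, other scalings and filters, the replicate block, pseudogene counts added and each library left out. The members and lists were chosen with earlier results of these data known. Named are the 9 members, Top2b, markers, overlapping genes, pseudogenes and, in each list, the 2 highest and 2 lowest log2 fold changes past the adjusted p. Ager, Cxcr4, H1fx, Hmgb4, Igf2bp1, Tox3, Gm10282, Gm21596, Gm15387, Gm5527, Gm46432 and Xist were named after their values were seen.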

Additional observations from a re-analysis of the deposited data

How the results depend on the processing

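With 1 library left out, all 36 values of the HMG genes kept their direction. In fits with all libraries, the 9 HMG genes kept their direction and an adjusted p below 0.05 in 88 of 90 values. Settings that add the counts of copies change only members with such copies, so part of this agreement was fixed in advance. The exceptions were Hmga2 under scaling to the total count (-0.059, adjusted p = 0.091 by edgeR) and under scaling to Hprt, where it reversed to 0.24. Scaling to Hprt moved the median of all features to 0.37, and under it 2 HMG genes passed the cut-offs as higher (Hmgb2 and Hmgn3) and 0 as lower, with Hmga1 at -0.97 and Hmgn5 at -0.77. The share of all features that passed the cut-offs under that scaling is not given here. With the adjusted p as the only cut-off in the main fit, 6 HMG genes were higher and 3 lower, against 32.5% in each direction over all features. The numbers of genes passing the cut-offs stayed at 1 higher and 2 lower with each library left out. Left-out ranges of the log2 fold change were -1.36 to -1.27 for Hmga1, -0.15 to -0.066 for Hmga2, 1.05 to 1.15 for Hmgb2 and -1.22 to -1.02 for Hmgn5. With DESeq2, Hmga1 was at -1.33, Hmgb2 at 1.12 and Hmgn5 at -1.13. Replicate numbers did not pair the libraries (correlation of same-numbered deviations 0.0207 over 17952 features), and the replicate block left 1 gene called higher and 2 lower, with Hmga1 at -1.34. Scaling to the total count moved the median log2 fold changes of other HMG-box genes to 0.19, linker histones to 0.60, the LIN28, let-7 and IGF2BP axis to 0.21 and proliferation genes to 0.17. The longest transcript as length changed the lead of Hmga1 over the next gene from 3.91-fold to 2.33-fold in wt and from 1.56-fold to 1.01-fold in Top2β-null MEF cells. Counts of 412 to 1051 limit Hmgn5 more than the other HMG genes.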
